A study of Mus musculus with 4 samples.

Results

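The cytosolic ribosomal protein genes encode the protein parts of the ribosome, with Rpl genes for the large subunit and Rps genes for the small subunit. Their probe sets were chosen by gene symbol alone: every probe set whose only annotated symbol has the form of an Rpl, Rps, Rplp or Rpsa name was taken, which gave 100 probe sets of 48 genes among 22690 probe sets and 12393 singly named genes in the deposited table. A filter on dim probe sets left 93 probe sets of 45 genes, 24 of the large and 21 of the small subunit, and each gene was then read at its brightest probe set on average. The 3 genes not tested were Rpl39l, Rpl3l and Rps4l, all near copies of other ribosomal protein genes, whose values lay between 0.2 and 9.3 on every array. Rplp1, Rpl5, Rpl3, Rpl10 and Rpl10l had no probe set with a single symbol and were not analysed here.

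The RNA came from mouse P19 cells, an embryonal carcinoma line that can turn towards neural fates, after 4 days of aggregation in dishes with 5e-07 M all-trans retinoic acid. The control line was unmodified P19, and the other line constitutively expresses human LIN28A; each line has 2 arrays, and both lines received the same retinoic acid treatment, so no untreated cells are in the comparison. The labels number the arrays 1 and 2 in each line without saying whether a number marks a culture or a day, and they do not say whether the LIN28A line is 1 clone or which promoter drives the transgene. Total RNA was primed with oligo(dT), copied into biotin-labelled RNA and hybridised to 1-colour Affymetrix arrays. Values are deposited intensities on a linear scale, and differences are LIN28A minus control in log2(value + 16), which understates changes of dim probe sets.

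A ribosome carries nearly all of its proteins in single copy, and cells make these proteins from some of their most abundant messenger RNAs. Most of these transcripts begin with a C followed by a run of pyrimidines, the terminal oligopyrimidine (TOP) tract, through which growth signals by way of mTOR and LARP1 control their translation and stability. LIN28A binds RNA: it stops let-7 precursors from being processed, and it also sits on many messenger RNAs. Arrays measure RNA levels and not translation.

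The start of the transcript is shown for 8 genes because these are the members whose RefSeq start (mouse build GRCm38.p6) is a C followed by at least 4 pyrimidines. Each window is 30 bases on the gene's own strand, 5′ to 3′; the start is the first base after 10 upstream bases, and capitals mark the tract from that base to its last pyrimidine.
Rpl14, chr9:120571507-120571536, plus strand: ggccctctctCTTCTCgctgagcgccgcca
Rpl35, chr2:39005112-39005141, minus strand: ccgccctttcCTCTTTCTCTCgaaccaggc
Rpl38, chr11:114668570-114668599, plus strand: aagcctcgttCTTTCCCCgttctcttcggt
Rplp2, chr7:141447641-141447670, plus strand: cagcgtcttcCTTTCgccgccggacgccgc
Rps10, chr17:27635225-27635254, minus strand: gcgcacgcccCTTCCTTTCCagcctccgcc
Rps18, chr17:33955646-33955675, minus strand: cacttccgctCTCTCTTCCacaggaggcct
Rps27, chr3:90213629-90213658, minus strand: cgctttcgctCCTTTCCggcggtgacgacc
Rps6, chr4:86857348-86857377, minus strand: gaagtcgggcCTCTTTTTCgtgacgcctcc

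The same windows of 3 paralogs hold no tract at the annotated start, and they are shown because 2 of them, Rpl7l1 and Rps27l, were among the few genes with higher values in LIN28A cells. Rps27l has another annotated start, which holds no tract either. Most members whose start was read hold no tract there. Many of these had lower values, such as Rpl22l1 (-0.48), Rps28 (-0.50) and Rpsa (-0.42). In the wider search described below, Rps27l and Rpl22l1 do have a tract near a start. Whether a tract goes with the difference was not tested.
Rpl7l1, chr17:46782637-46782666, minus strand: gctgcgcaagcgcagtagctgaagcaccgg
Rps27l, chr9:66946076-66946105, plus strand: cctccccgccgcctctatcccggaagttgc
Rpl22l1, chr3:28805498-28805527, plus strand: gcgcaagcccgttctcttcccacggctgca

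Of the 48 genes, 42 had an entry in the RefSeq table of start regions. A tract of C and at least 4 pyrimidines began exactly at an annotated start in 8 of them (19.05%), against 813 of 27025 genes in the whole table (3.01%). When a C followed by at least 6 pyrimidines could begin anywhere within 20 bases of the start on the same strand, 25 member genes (59.5%) had one, against 23.6% of all genes. An annotated start that is off by a few bases moves a tract out of the first position, and no match says only that these letters are not in this window.

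On the deposited scale most ribosomal protein genes had lower values in LIN28A cells than in the control array of the same number, and no gene passed the test. The median intensity of the 45 genes was 8352.8 in control 1 and 4786.8 in control 2, against 5880.0 in LIN28A 1 and 3791.3 in LIN28A 2. For these genes the arrays numbered 1 read higher in both lines, and control 2 lay below LIN28A 1, so the lines overlap. The arrays numbered 1 were not brighter as a whole. The median over all probe sets was 35.8 in control 1, 38.6 in control 2, 29 in LIN28A 1 and 36.7 in LIN28A 2. The median log2 difference was -0.38 over the 45 genes, -0.48 within number 1 and -0.29 within number 2, against -0.04 over all 8930 tested genes. The numbers themselves differed more: number 2 minus number 1 had a median of -0.74 over the members and 0.07 over all tested probe sets. With an array left out the lines no longer hold both numbers equally: the median of the 45 genes was 0.02 without control 1, -0.06 without LIN28A 2, -0.78 without control 2 and -0.70 without LIN28A 1.

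Of the 45 genes, 38 were lower in LIN28A within both numbers (32.6% of all tested genes were) and 3 were higher within both (25.7% of all tested genes were), namely Rpl7l1, Rps27l and Rpl12. Under the stricter rule that both LIN28A arrays lie on one side of both control arrays, 3 genes were lower, Rps27, Rpl22l1 and Rps25, where 16.6% of all tested genes were, and 1 was higher, Rpl7l1, where 11.5% were. These counts under the stricter rule are small shares of the 45 genes, and they were not stable when an array was left out: 39 genes were lower without overlap when control 2 was left out (36.1% of all tested genes were), 39 without LIN28A 1 (30.6%) and 5 without control 1 (34.1%). limma with Benjamini-Hochberg adjustment over 15838 probe sets called 0 of the 93 member probe sets and 0% of all probe sets, and the lowest adjusted p among members was 1.0. At an unadjusted p under 0.05, 0 member probe sets were lower (1.21% of all probe sets were) and 0 were higher (0.442% were).

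**Figure D1:**
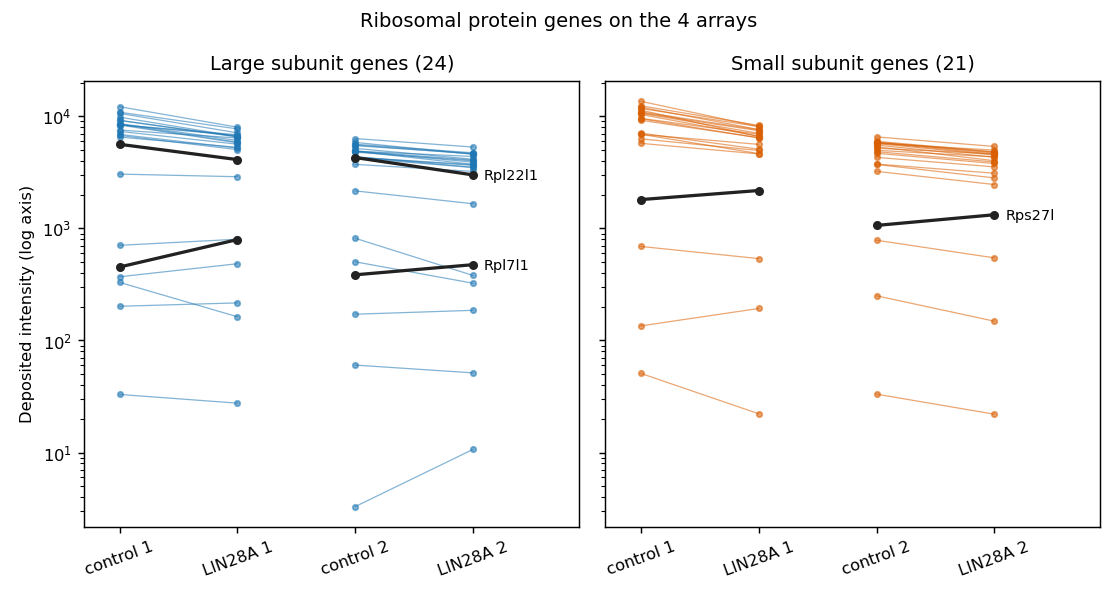
Deposited intensity (log axis) of the 24 large and 21 small subunit genes on the 4 arrays, each gene at its brightest probe set, with a line joining the control and LIN28A arrays of the same number. Most lines fall from control to LIN28A within each number, while Rpl7l1 and Rps27l, drawn in black with Rpl22l1, go up in both. Most genes read higher on the arrays numbered 1 than on those numbered 2.

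**Figure D2:**
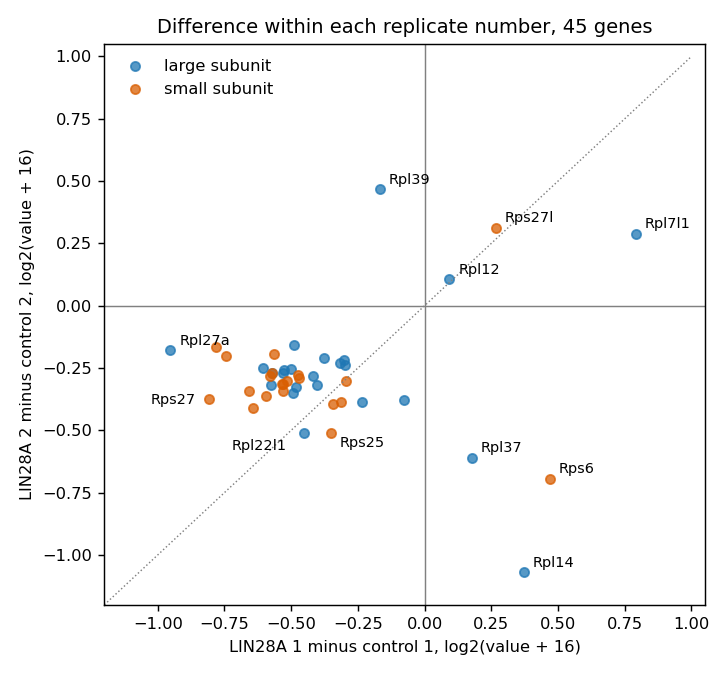
The log2 difference of each of the 45 genes within number 1 (x axis) and within number 2 (y axis), coloured by subunit; the dotted line marks equal differences. 38 genes lie in the lower left part and 3 in the upper right, and Rpl14, Rps6 and Rpl37 lie above 0 in number 1 and below 0 in number 2.

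The genes whose differences were of opposite sign in the 2 numbers were all read at dim probe sets. How well a dim probe set reads its gene was not tested. Rpl14, a large subunit protein, read 370.1 and 815.4 in control 1 and 2 and 483.8 and 379.9 in LIN28A 1 and 2, a difference of 0.37 in number 1 and -1.07 in number 2. Rps6, the small subunit protein that S6 kinase phosphorylates, read 134.9 and 250.4 in control against 192.9 and 148.6 in LIN28A. Its arrays overlap, with a difference of -0.11 ± 0.38 (limma's standard error, 2 arrays a line). Across the 45 genes, the differences in number 1 and number 2 had a Pearson r of 0.05 and a Spearman rho of -0.08, so the order of the genes in one number was not that in the other; the genes share their 4 arrays and are not independent replicates.

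Among proteins of the ribosomal stalk, which recruits the elongation factors, Rplp0 and Rplp2 were both lower within each number. Rplp0 read 9819.7 and 5550.9 in control against 6599.5 and 4606.3 in LIN28A, a difference of -0.42 ± 0.39. Rplp2 read 10612.0 and 5169.3 in control against 7117.5 and 4137.9 in LIN28A, a difference of -0.45 ± 0.47. For both, LIN28A 1 lay above control 2, and the difference was about as large as its standard error. The fit has no block, so the gap between the numbers enters this error, as it does every ± value given here. Number 2 minus number 1 was -0.67 for Rplp0 and -0.91 for Rplp2.

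Among the other large subunit genes with well-known roles, the same pattern of arrays held. Rpl11, which binds Mdm2 together with the 5S ribosomal RNA when assembly is disturbed, read 7330.9 and 3723.9 in control against 5638.5 and 3220.2 in LIN28A, a difference of -0.29 ± 0.46. Rpl38, needed for translation of a subset of Hox transcripts in the mouse embryo, read 12175.5 and 6328.2 in control against 7991.0 and 5315.4 in LIN28A, a difference of -0.43 ± 0.43. Rpl10a, which has been studied as a protein present on only some ribosomes, read 7533.5 and 4876.8 in control against 6399.4 and 3722.4 in LIN28A, a difference of -0.31 ± 0.40. In these 3 genes each LIN28A array was below the control array of its number. The lines overlapped because these genes read higher on the arrays numbered 1.

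In the small subunit, Rpsa, the laminin receptor protein at the head of the subunit, read 10743.7 and 5865.9 in control against 7433.4 and 4713.4 in LIN28A, a difference of -0.42 ± 0.42. Rps19, the gene most often mutated in Diamond-Blackfan anaemia, read 6293.4 and 3716.7 in control against 4955.1 and 2820.7 in LIN28A, a difference of -0.37 ± 0.42. Rps14, whose loss is tied to the anaemia of the 5q- syndrome, read 11345.1 and 5185.4 in control against 6600.5 and 4623.8 in LIN28A, a difference of -0.47 ± 0.45. All 3 were lower within both numbers with overlapping lines.

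The 5 largest falls in value at the chosen probe set were those of Rps27, Rpl27a, Rps20, Rps28 and Rpl22l1. Rps27, a small subunit protein with a zinc finger, read 50.9 and 33.2 in control against 22.2 and 22.0 in LIN28A, a difference of -0.59 ± 0.30 (adjusted p = 1.0 by limma); its groups do not overlap, but its probe set is dim and the table has no detection calls. Rpl27a read 329.8 and 60.3 in control against 162.7 and 51.4 in LIN28A, with a gap between the numbers far wider than that between the lines. Rps20 read 10385.0 and 5345.2 in control against 6636.9 and 4015.1 in LIN28A, a difference of -0.53 ± 0.45, the largest among the bright members. Rps28 read 12041.4 and 5829.5 in control against 7619.6 and 4589.0 in LIN28A, a difference of -0.50 ± 0.46, again with LIN28A 1 above control 2. Rps25, a small subunit protein used by several viral internal ribosome entry sites, was outside these 5 but had no overlap, with 690.1 and 783.6 in control against 537.7 and 545.7 in LIN28A, a difference of -0.43 ± 0.28 (adjusted p = 1.0 by limma).

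Only 4 of the 45 genes had a difference above 0. Rpl7l1, a paralog of Rpl7 found in large subunit precursors, read 452.3 and 385.4 in control against 794.8 and 474.5 in LIN28A, a difference of 0.54 ± 0.35 (adjusted p = 1.0 by limma). Both its LIN28A arrays lay above both control arrays. Its other probe set read 196.7 and 299.7 in control against 290.8 and 333.5 in LIN28A, a difference of 0.34 with overlap. Rps27l, a paralog of Rps27 that p53 induces, read 1806.2 and 1062.4 in control against 2176.4 and 1323.2 in LIN28A, a difference of 0.29 ± 0.41. Its 3 probe sets gave 0.26, 0.29 and 0.44, and all were higher within both numbers. The other two were Rpl12, with 201.9 and 171.5 in control against 216.4 and 185.8 in LIN28A, and Rpl39, with 33.0 and 3.3 in control against 27.6 and 10.7 in LIN28A. Their differences, 0.10 ± 0.29 and 0.15 ± 0.52, were smaller than their standard errors.

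Paralogs and their parent genes can be set side by side by their own differences, though not by their levels, since each probe set has its own response. Rpl7 read 8352.8 and 4786.8 in control against 5794.7 and 4002.1 in LIN28A, a difference of -0.39, against 0.54 for Rpl7l1. Rps27, whose only probe set is dim (22.0 to 50.9 over the arrays), had -0.59 and Rps27l 0.29. Rpl22l1, the paralog that Rpl22 represses, read 5622.8 and 4281.4 in control against 4107.3 and 2997.8 in LIN28A, a difference of -0.48 ± 0.33 without overlap. Rpl22 itself read 3048.8 and 2159.2 in control against 2889.8 and 1657.6 in LIN28A, a difference of -0.23 ± 0.39. At its second, dimmer probe set Rpl22 had -0.93 without overlap, a larger fall than that of Rpl22l1. Rps4x, the X-linked form, had -0.38 ± 0.38, with 9584.8 and 5859.6 in control against 6911.7 and 4788.9 in LIN28A. In the Rpl7 and Rps27 pairs the parent and the paralog had opposite signs within both numbers, and in the Rpl22 pair both were below 0 within both numbers; none of these differences was tested between genes.

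The 2 subunits had similar medians. The large subunit had a median difference of -0.35 (-0.41 in number 1 and -0.26 in number 2), with 21 of 24 genes below 0. The small subunit had -0.42 (-0.53 and -0.31), with 20 of 21 genes below 0. Large minus small was 0.07 over both numbers, 0.12 in number 1 and 0.05 in number 2. With genes of mean log2 value 12 or more only, it was 0.05 over both numbers, 0.07 in number 1 and 0.03 in number 2. With all genes it was 0.01 without control 1, 0.17 without control 2, 0.03 after cyclic loess and 0.03 when all probe sets of each gene were averaged. The gap between subunits was smaller than the gap between the 2 numbers within either subunit; with 2 arrays against 2, an exact two-sided permutation test cannot give a p under 0.333, so none is given for it.

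Over both numbers, brighter probe sets had a median farther below 0 than dimmer ones, in members and in other genes. Within number 2 this order was reversed in the members. Of the 45 genes, 33 had a mean log2 value of 12 or more (an intensity of about 4080), and all 33 were below 0 in both numbers, with a median of -0.40 (-0.51 in number 1 and -0.28 in number 2). The 26 other probe sets with 1 symbol at that brightness had a median of -0.26 (-0.41 and -0.07), and 24 were below 0. Among these 26 are probe sets of Tpt1, Eef1a1, Npm1 and Naca, which belong to the other TOP transcripts described below. The 184 others with a mean log2 value from 11 to 12 had a median of -0.09 (-0.15 and -0.05). The 12 member genes under 12 had a median of -0.22, with 0.01 in number 1 and -0.38 in number 2, and 8 of them were below 0. So within number 1 the other bright probe sets lay nearly as far below 0 as the bright members, and within number 2 they lay closer to 0. Whether the members' difference is more than that of bright probe sets in general was not tested.

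**Figure D3:**
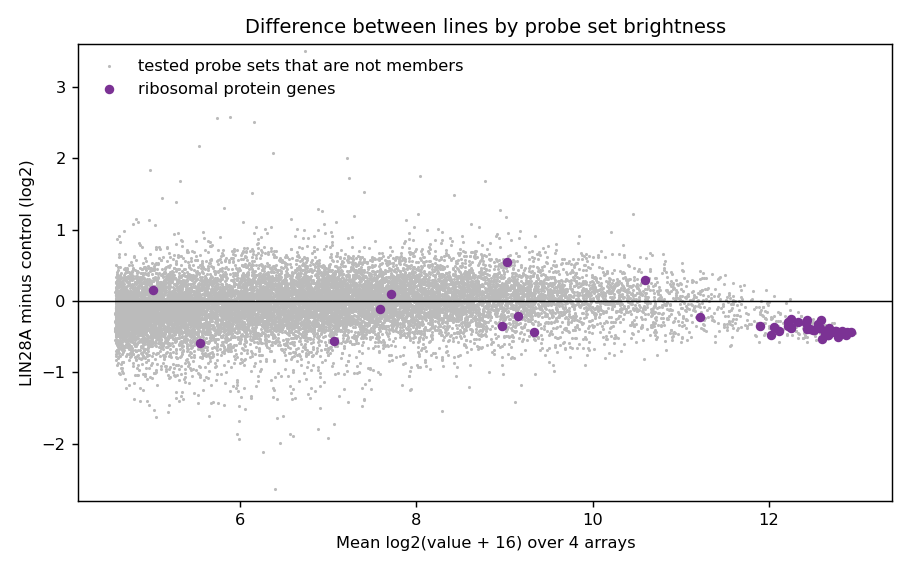
LIN28A minus control log2 difference (y axis) against mean log2(value + 16) over the 4 arrays (x axis) for tested probe sets, with the 45 ribosomal protein genes in purple and probe sets that are not members in grey. The purple points crowd at the right end below 0, where the grey points also lie mostly below 0, and the dimmer members spread to both sides.

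The 2 mouse Lin28a probe sets read 28.8, 15.5, 7.0 and 8.6, and 30.7, 76.2, 56.1 and 37.5, in control 1, control 2, LIN28A 1 and LIN28A 2; neither had both LIN28A arrays above both control arrays, though the second was higher in LIN28A within number 1, and whether these mouse probes detect the human transgene is not known here, so they do not check the labels. Some facts of the arrays also differed between the numbers, though not all of them are separate from the member values. The trimmed mean was 150.1 on each array. The highest value was 13603.8 in control 1, 6697.8 in control 2, 8442.6 in LIN28A 1 and 5960.4 in LIN28A 2. That of control 1 is a member probe set, of Rps29. Of the 100 brightest probe sets on each array, 30 to 34 were members. Member probe sets made up 9.50% of the summed intensity in control 1, 6.34% in control 2, 7.53% in LIN28A 1 and 5.33% in LIN28A 2. This share is built from the member values and moves with them by construction. A spiked-in bacterial control, bioB, read 523.6, 165.1, 269.2 and 160.8 in the same order at its middle probe set, and the middle probe set for 18S ribosomal RNA, which has no poly(A) tail, read 676.6, 9.2, 136.3 and 11.3. Both were high in control 1, next in LIN28A 1 and lowest in the arrays numbered 2, as the bright members were. The 3′ probe set of beta-actin read 8192.3, 3390.9, 6190.8 and 2465.5 in control 1, control 2, LIN28A 1 and LIN28A 2. Its 5′ probe set read 1740.4, 1230.6, 1836.3 and 796.8. For Gapdh the 3′ one read 7645.3, 3658.9, 4957 and 3460.7, and the 5′ one 6666.1, 4718.7, 4427.2 and 4215.4. The part of these controls and of RNA quality in the members' differences was not tested.

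How the arrays are scaled to each other decided the size of the shift, as the plot of medians under 4 normalizations shows. Centring each array on its median gave a median of -0.34 over the 45 genes, with 41 below 0, as on the deposited scale. Cyclic loess, which removes brightness-dependent differences between pairs of arrays, gave -0.17 (-0.20 in number 1 and -0.13 in number 2), with 41 below 0. Quantile normalization gives every array the same distribution of values and so sets the brightest ranks equal by construction. It gave -0.03 (0.04 in number 1 and -0.06 in number 2), with 28 genes at or below 0, of which Rpl38 was at 0. The median of all probe sets was -0.05 as deposited, -0.01 after centring, -0.0004 after cyclic loess and 0.01 after quantile normalization. The direction of the members' median within number 1 therefore flips under quantile normalization, and within number 2 it stays below 0 under all 4 scalings.

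**Figure D4:**
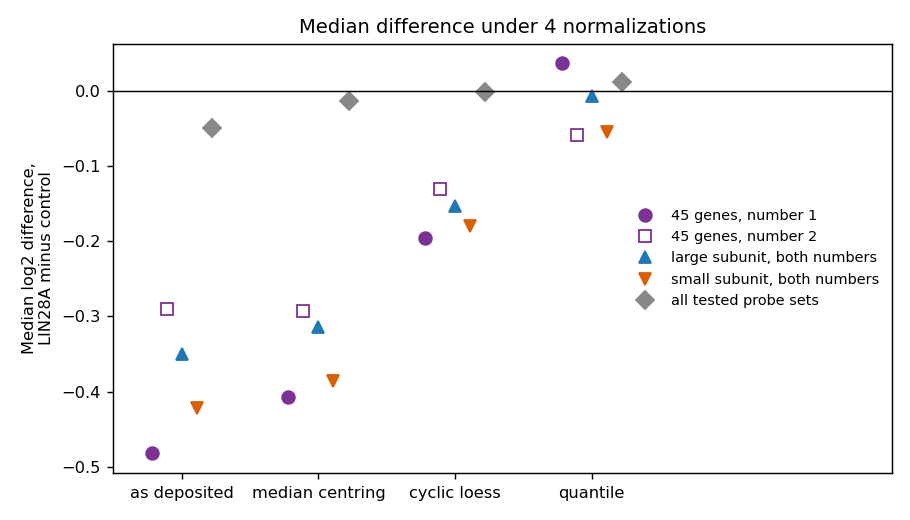
Median log2 difference (LIN28A minus control) of the 45 genes within number 1 and number 2, of the large and small subunit genes, and of all 15838 tested probe sets, under 4 normalizations. The member medians run from between -0.48 and -0.29 as deposited to between -0.06 and 0.04 after quantile normalization, and the small subunit lies below the large one in each.

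The number of genes without overlap moved with scaling as well. After cyclic loess, which draws the 2 numbers together, 25 of the 45 genes were lower in both LIN28A arrays, 10 of the large and 15 of the small subunit (14.5% of all tested genes were lower), and 0 were higher (14.0% of all tested genes were). After quantile normalization 7 were lower, Rpl22l1, Rps20, Rps25, Rps26, Rps27, Rps3 and Rps7, where 13.7% of all tested genes were, and 2 were higher, Rpl41 and Rps2, where 14.5% were. After median centring 2 were lower, Rps25 and Rps27, where 13.1% of all tested genes were, and 0 were higher, where 12.9% were. Rps25 and Rps27 were without overlap under all 4 scalings, with Rps25 at -0.43 as deposited, -0.39 after centring, -0.49 after cyclic loess and -0.48 after quantile normalization. Rps27 had -0.59, -0.55, -0.48 and -0.48 in the same order. Rpl7l1 stayed above 0, at 0.54, 0.58, 0.48 and 0.48, though its arrays overlapped under the other scalings, and Rps27l stayed above 0 at 0.29, 0.33, 0.35 and 0.32. These 4 genes kept their sign within both numbers under all 4 scalings. So did others, among them the bright genes Rps20, Rps28 and Rpl22l1, though their differences shrank after quantile normalization (-0.13, -0.097 and -0.24). Rpl38, also bright, went from -0.43 as deposited to 0.00 after quantile normalization.

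Probe sets of one gene mostly gave the same sign when they were bright. Of 20 genes with at least 2 tested probe sets, 13 had one sign, 11 of them below 0 and 2 above 0 (Rpl7l1 and Rps27l), and 7 had both signs. The median range between probe sets of a gene was 0.23 in log2 difference. Among the 16 genes with at least 2 probe sets of mean log2 value 10 or more (an intensity of about 1008), those probe sets had one sign in all 16, with a median range of 0.05 and a largest range of 0.37, in Rpl13a. The probe sets share the same 4 arrays, so their likeness shows that probes agree and not that a line differs.

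The 3 genes with the widest range were Rps18, Rps9 and Rpl37a, and in each a dim probe set differed from bright ones. Rps18, at its brightest probe set, read 11741.3 and 5984.3 in control against 8096.9 and 4813.0 in LIN28A, a difference of -0.42, while a dim one read 8.0 and 3.5 in control against 12.9 and 10.6 in LIN28A, a difference of 0.36. Rps9 had -0.35 at its brightest and 0.48 at a probe set that read 38.5 and 39.4 in control against 66.0 and 55.2 in LIN28A. Rpl37a had -0.40 at its brightest and 0.35 at a probe set that read 134.4 and 247.5 in control against 247.9 and 229.1 in LIN28A. The second Rpl22 probe set, by contrast, gave -0.93, with 612.6 and 1363.8 in control against 474.8 and 467.6 in LIN28A. Probe sets whose names end in _x_at can share probes with other transcripts, and ribosomal protein genes have many processed pseudogenes; 38 of the 93 tested probe sets were of this kind, with a median of -0.41 and 34 below 0. The 28 ending in _a_at, whose probes are meant for transcripts of 1 gene, had -0.38, with 27 below 0, and the 25 with the plain ending _at had -0.11, with 14 below 0. With _at and _a_at probe sets only, the median over genes was -0.36. The plain ones were also dimmer as a set, and the part of brightness in this gap was not tested.

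**Figure D5:**
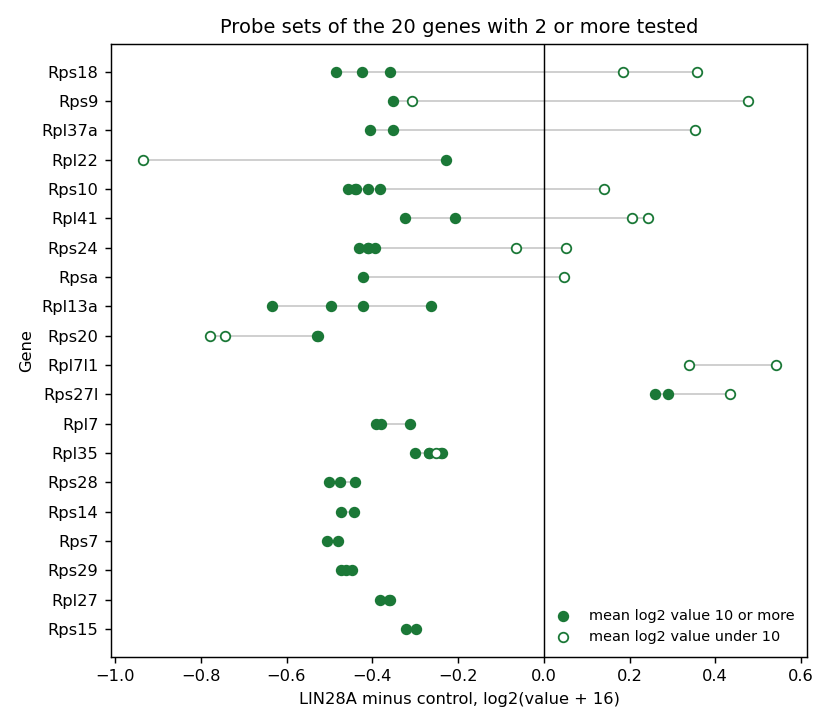
LIN28A minus control difference in log2(value + 16) (x axis) of every tested probe set of the 20 genes with at least 2 (y axis), filled where the mean log2 value is 10 or more and open where it is lower. Filled points of a gene lie close together, and the points on the other side of 0 from the filled ones are open.

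Other transcripts known for a TOP tract, whose start was not read here, were also mostly below 0, with another order of the numbers. Of 21 such genes, mostly translation factors, 20 were tested; their median was -0.36 (-0.18 in number 1 and -0.41 in number 2), 19 were below 0, 8 were lower and 1 was higher in both LIN28A arrays (16.6% and 11.5% of all tested genes were), and limma called 0 of 20. Their median was thus nearer 0 in number 1 than in number 2, while that of the ribosomal protein genes was farther from 0 in number 1; the lists were not tested against each other. Gas5, a host gene of small nucleolar RNAs, read 1640.4 and 2929.4 in control against 1448.2 and 1142.6 in LIN28A, a difference of -0.76 ± 0.38. Snhg1, another host gene, read 3640.4 and 3862.3 in control against 2858.0 and 2069.7 in LIN28A, a difference of -0.62 ± 0.31. Neither makes a known protein, and both were lower in both LIN28A arrays. Eef1d, a subunit of the elongation factor exchange complex, was the only one above 0, at 0.42 ± 0.31, with 1120.4 and 1395.5 in control against 1938.5 and 1460.3 in LIN28A. Fau, whose product includes the small subunit protein eS30, had -0.24 ± 0.38.

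Over both numbers, genes for ribosome assembly mostly did not share the sign of the ribosomal proteins. Of 73 listed genes for nucleolar assembly and RNA polymerase I, 67 were tested; their median was 0.13, 0.28 in number 1 and -0.0001 in number 2, with 15 below 0. Of them 13 were higher and 4 lower in both LIN28A arrays, where 11.5% and 16.6% of all tested genes were, and limma called 0. Within number 2, 34 of the 67 were below 0. The list was far dimmer than the members, with medians of 210, 245.7, 305 and 257.5 in control 1, control 2, LIN28A 1 and LIN28A 2. The 9 members with a mean log2 value under 10 had a median of -0.22 over both numbers, with 6 below 0. Their median was 0.09 in number 1 and -0.37 in number 2. The part of brightness in this contrast was not tested. Nolc1, a nucleolar phosphoprotein, read 195.6 and 340.1 in control against 389.5 and 406.2 in LIN28A, a difference of 0.59 ± 0.35. Nop58, a core protein of box C/D ribonucleoproteins, had 0.68 ± 0.64, from 195.5 and 136.6 in control against 540.0 and 132.2 in LIN28A, so its difference lay in number 1 alone. Taf1d, part of the RNA polymerase I initiation factor, had -0.71 ± 0.42, from 342.5 and 330.6 in control against 297.1 and 133.3 in LIN28A, and Polr1c, shared by RNA polymerases I and III, had -0.52 ± 0.41.

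Markers of cell state differed between arrays beside these values. In bulk RNA, fewer cells of a type and less RNA per cell cannot be told apart. Of 20 neuronal markers 17 were tested and all 17 were below 0, with a median of -0.53, and their summed level was 5789.1 in control 1, 8969.7 in control 2, 3268.2 in LIN28A 1 and 6482.8 in LIN28A 2. Of 20 proliferation genes 19 were tested and 0 were below 0, with a median of 0.54 and sums of 21633.2, 13801.2, 25266 and 20579 in the same order. The 10 tested of 16 markers of undifferentiated P19 cells had a median of -0.18 in number 1 and 0.87 in number 2, with 4 below 0 over both. They summed to 355, 635.1, 491.4 and 1363.3, and Pou5f1 (Oct4), at 30.3, 374.2, 28.7 and 775.2, made up most of the sums of the arrays numbered 2. The differences of these 10 ran from -0.40 in Dppa5a to 2.58 in Sall4. In both LIN28A arrays 3 were higher and 2 lower (11.5% and 16.6% of all tested genes were), and limma called 0. Fibroblast and smooth muscle markers, 10 of 14 tested, summed to 401.1, 219.7, 414.8 and 610.1, and endoderm markers, 5 of 10 tested, to 328.3, 512.2, 282.6 and 720. All 10 listed neural progenitor genes were tested; 4 were below 0, the median was 0.06, and the sums were 4963.8, 6589.5, 5595.1 and 4847.6. Their differences ran from -0.64 to 1.48. Only Sox2 was lower (-0.34) and only Hes5 higher (1.48) in both LIN28A arrays (16.6% and 11.5% of all tested genes were). Within both numbers, 2 of the 10 were lower and 1 was higher (32.6% and 25.7% of all tested genes were). The part of these cell states in the ribosomal protein differences was not tested.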

How the data were processed

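The authors deposited 1 table of intensity values for 22690 probe sets on 4 arrays, linear and not log transformed; the summarising software and scaling are not given in the sources used here. Means after trimming 2% at each end were 150.1 on all arrays, so the values were used without further scaling. Gene symbols came from the platform annotation: 20380 probe sets carried 1 symbol and 64 were array controls, which were left out. In this re-analysis 16 was added, log2 taken, and probe sets with a mean under the 30th percentile (intensity about 8.04) left out; 15838 remained. The lines were set against each other with lmFit and eBayes of limma 3.58.1 (R 4.3.3) and no block, with Benjamini-Hochberg adjusted p-values over all 15838 and a threshold of 0.05. The test was tested on simulated data. Start windows were read with Python 3.11.15.

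No label states separate cultures for the arrays of a line. The p-values therefore reflect the spread among these 4 arrays alone, possibly a technical one, and the number of arrays limits precision. The members and gene lists were chosen with earlier results of these data known. The genes named are stalk proteins, genes with well-known roles and paralogs (whatever their values), the 5 lowest and 5 highest differences (of the latter Rps6 is below 0), genes without overlap between lines, and the 3 genes with the widest range between probe sets. From the lists of other ribosome, TOP and assembly genes, up to 2 in each direction are named; marker genes and genes named under other scalings were picked as examples. Alternatives were quantile normalization, median centring, cyclic loess, pseudocounts of 1 and 64, no filter and one at the 50th percentile, averaged probe sets, a replicate block, a trended prior and leaving out each array. Added after seeing the data were the block with quantile normalization, restriction by probe set ending, adding probe sets with several symbols, and differences relative to other bright probe sets.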

Additional observations from a re-analysis of the deposited data

How the results depend on the processing

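None of the alternatives run gave a member probe set an adjusted p under 0.05, and 6 of the 25 named genes (Rps27, Rps20, Rpl22l1, Rps25, Rplp0 and Rpl7l1) kept their sign in every one run for them (Rps27 drops out under the 50th percentile filter). The median over the 45 genes was -0.17 after cyclic loess, -0.027 after quantile normalization; it ran from -0.78 to 0.022 with an array left out. The median of the 33 bright genes was -0.14 relative to that of the other bright probe sets. For the large subunit these were -0.15 (cyclic loess), -0.0067 (quantile normalization) and -0.69 to 0.030 with an array left out, and for the small subunit -0.18, -0.055 and -0.86 to 0.019. Within number 1 cyclic loess gave -0.20 and quantile normalization 0.037; within number 2 they gave -0.13 and -0.058. Genes above both control arrays numbered 0 after cyclic loess (14.0% of all tested genes were above), 0 after median centring (12.9%), 2 after quantile normalization (14.5%) and 1 to 4 with an array left out (24.5% to 33.3%). Genes below both numbered 25 after cyclic loess (14.5% of all tested genes were below), 7 after quantile normalization (13.7%), 5 with probe sets averaged (17.2%) and 3 to 39 with an array left out (30.6% to 40.6%). Quantile normalization turned 13 of the 45 genes from below to above 0, among the named ones Rpl37a (0.0082), Rps4x (0.014), Rpl10a (0.047) and Rpl11 (0.037). The cause of these changes was not tested. With an array left out, 18 named genes changed sign, with these ranges: Rpl27a -1.66 to 0.52, Rps28 -1.02 to 0.021, Rps14 -1.04 to 0.091, Rplp2 -0.97 to 0.070, Rpl38 -0.90 to 0.042, Rps18 -0.91 to 0.061, Rpsa -0.86 to 0.013, Rpl37a -0.86 to 0.052, Rpl7 -0.79 to 0.0087, Rps19 -0.77 to 0.035, Rps9 -0.80 to 0.10, Rpl10a -0.70 to 0.078, Rpl11 -0.78 to 0.19, Rpl22 -0.63 to 0.17, Rps6 -0.52 to 0.30, Rpl12 -0.0089 to 0.21, Rpl39 -0.52 to 0.82 and Rps27l -0.089 to 0.67 Leaving out an array makes the lines hold the 2 numbers unequally, and a lone array is then assumed to vary like the other line.

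Arrays of the same number deviated together from their line's mean (r = 0.62 across tested probe sets, 2 pairs), but the labels give only a shared number. With the replicate block, limma called 1 of 15838 probe sets and 0 members (lowest member adjusted p = 0.54); 7 member probe sets were lower at an unadjusted p under 0.05, against 5.62% of all probe sets, and 0 were higher, against 2.95%. The block with quantile normalization gave 4 lower and 2 higher of 93, against 4.464% and 4.401% of all probe sets. Leaving out an array, without the block, gave 1 to 2 lower, against 0.934% to 2.002% of all probe sets. Probe sets near background cannot be told from it, since the table holds no detection calls.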

Other observations

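Another 102 probe sets carry several symbols of which 1 is a ribosomal protein gene, and they were left out of the members because they name no single gene. Of these, 99 passed the filter, with a median difference of -0.40 (-0.46 in number 1 and -0.34 in number 2) and 95 below 0. The 65 with a mean log2 value of 12 or more were all below 0 within both numbers. Together with the members they made up 20.5% of the summed intensity in control 1, 13.7% in control 2, 16.1% in LIN28A 1 and 11.5% in LIN28A 2.

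Across the 45 member genes the control and LIN28A arrays of the same number had a Pearson r of 0.99 in log2 level in both numbers, LIN28A 1 and LIN28A 2 also had 0.99, and control 1 and control 2 had 0.97; the genes are not independent replicates, and the values are a description.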
